A study of Homo sapiens with 51 samples.

Results

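CNOT1 is the scaffold subunit of CCR4-NOT, and its knockdown in K562 cells was compared here with a control guide in RNA from both cell fractions. The members are the 4 libraries labelled sgCNOT1 and the 4 labelled sgGal4, 8 of the 51 libraries of the study. K562 is an established line from a chronic myelogenous leukaemia. All 8 libraries came from cells in which CRISPR interference, a repression of transcription by a guided inactive Cas9, acted with 1 guide label. The label is sgCNOT1 in the knockdown and sgGal4 in the control, and each guide label has 2 cytoplasmic-labelled and 2 nuclear-labelled libraries. The same series holds knockdowns of DDX3 and of NUP160 and a set of DDX3 transgenes, which are not described here except where the sgDDX3 and sgNUP160 libraries share a fit. Guide sequences, the time since infection and whether the cells were clonal are not given in the sources used here.

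CCR4-NOT shortens the poly(A) tails of messenger RNAs. Adaptor proteins such as the TTP family, BTG and TOB proteins and the microRNA machinery bring it to selected transcripts, and removal of the tail is usually the step that opens a transcript to decapping and decay. The complex assembles on CNOT1, so loss of CNOT1 disturbs the complex as a whole. In blood cells the complex is known for limiting short-lived messages of signalling and inflammation.

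For fractionation the cells were lysed with a mild detergent and spun through sucrose. What stayed above the sucrose was labelled cytoplasmic, and the pellet, after a wash, nuclear. Libraries were made after ribosomal RNA depletion with a directional kit, so transcripts without a poly(A) tail were not selected against. Values are given as CPM, the usual scaling of a gene's count to its library's total of gene counts, which compares 1 gene between libraries and not genes of different length. Gene counts ran from 5612000 to 10390000 in the 4 cytoplasmic-labelled libraries, and the 4 nuclear-labelled libraries had 3716000 to 21370000. In these bulk samples, fewer cells of a kind and less RNA per cell cannot be told apart. The labels do not say whether the replicates were separate cultures, so p-values measure the spread between these samples, which may be technical. The fits behind them draw that spread from the sgDDX3 and sgNUP160 libraries as well.

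The RNA content ran opposite to the fraction labels. MALAT1, a nuclear-retained RNA, was at 25020 and 24480 CPM in the cytoplasmic-labelled sgGal4 libraries and at 2268 and 1728 CPM in the nuclear-labelled ones. The sgCNOT1 libraries had the same order, with 29530 and 22000 CPM against 2037 and 1665 CPM. In sgGal4 cells 81 of 86 cytosolic ribosomal protein genes were called higher in the nuclear-labelled fraction at an adjusted p below 0.05 (median log2 ratio 2.54). There 10 of 11 nuclear-retained long non-coding RNAs were called lower, with a median of -2.83. Reads that met no annotated exon on the counted strand made up 50.4% to 60.5% of uniquely mapped reads in the cytoplasmic-labelled libraries. The share was 5.14% to 7.17% in the nuclear-labelled ones, and reads in introns are part of it. The fractions are therefore called by their labels throughout, and the direction of a nuclear-to-cytoplasmic ratio is that of the labels. The K562 identity was visible in GATA1, the erythroid and megakaryocytic regulator, at 114 to 150 CPM in the cytoplasmic-labelled libraries, whereas the embryonic globin HBE1 had no reads in any of the 8.

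The sgCNOT1 replicates stood further apart than any other pair. Over genes, the Pearson chi-square of the counts of the pair per degree of freedom was 27.6 for cytoplasmic-labelled and 13.0 for nuclear-labelled libraries. It was 2.05 to 4.25 for the pairs of sgGal4, sgDDX3 and sgNUP160. This measure grows with read depth as well as with the spread, and depth differed between the pairs. The cytoplasmic-labelled sgCNOT1 libraries also differed in reads outside annotated exons, with 50.4% in replicate 1 and 60.5% in replicate 2. Values are therefore printed for each replicate. The fits pool the spread over the 4 guides, so the p-values may understate that of the sgCNOT1 pair. With the sgCNOT1 and sgGal4 libraries alone 1890 genes, not 3541, were called in the cytoplasmic-labelled fraction. The counts were 6330, not 7110, in the nuclear-labelled one and 102, not 1042, for the ratio change, in fits that also hold fewer libraries. Many counts of called genes in the lists, above all in the cytoplasmic-labelled fraction, moved when 1 library was left out. For most lists, counts without the libraries that moved them most stand beside the list, where "replicate" then means a library of the fraction named. For the ratio change no such counts are given beside the lists. Those counts moved as well, many of them by more than the count itself, so each holds for the fit with all libraries only.

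Sequences of transcripts that the results turn on are shown first, in 3 sets. The first set is 30 bases around the transcription start, 15 before and 15 from the start on, of small nucleolar RNA (snoRNA) host genes and ribosomal protein genes, because a pyrimidine run at the start (a 5′ terminal oligopyrimidine, or TOP, motif) is a known shared feature of both. The windows come from RefSeq on GRCh38.p14, and capitals mark a C at the first base followed by C or T without a break, at least 5 bases in all, read on the transcript's strand only. SNHG1 is shown as a host without such a run at the annotated base.
SNHG1, chr11:62855871-62855900, minus strand: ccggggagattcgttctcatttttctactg
SNHG5, chr6:85678719-85678748, minus strand: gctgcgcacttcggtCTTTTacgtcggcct
SNHG32, chr6:31834901-31834930, plus strand: ctcgccattttagttCTTTTTgcgaagtgg
ZFAS1, chr20:49278627-49278656, plus strand: aggaagccattcgttCTTTCgcgtctgcgg
RPSA, chr3:39406705-39406734, plus strand: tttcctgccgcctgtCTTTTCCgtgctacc
RPL22, chr1:6199581-6199610, minus strand: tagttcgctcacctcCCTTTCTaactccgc

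The run was found at 1104 of 27305 RefSeq starts (4.04%), at 45 of 71 ribosomal protein starts (63.4%), at 10 of 30 translation factor starts (33.3%) and at 6 of 20 snoRNA host starts (30.0%). A match describes letters at an annotated start, not a tested element.

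The second set is the stem-loop that ends replication-dependent histone messages in place of a poly(A) tail. Capitals mark GGNNCTNTTNAGNGCC, searched on the transcript's strand of GENCODE 29 3′ untranslated regions (3′UTRs) on GRCh38. It was found in 24 of 32 histone genes with a 3′UTR (75.0%) and in 33 of 18845 genes in all (0.175%).
H2AC8, chr6:26217412-26217437, plus strand: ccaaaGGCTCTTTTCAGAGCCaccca
H4C8, chr6:26285126-26285151, minus strand: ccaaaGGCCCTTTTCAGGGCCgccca

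The third set is the AU-rich heptamer that TTP-family proteins are known to bind, shown for 3 short-lived messages that rose. The heptamer is also in the 3′UTR of ATF3 and SOD2, which fell in at least 1 fraction. Capitals mark TATTTAT, the DNA letters of the RNA motif, with overlapping matches counted on the transcript's strand. It occurred in the 3′UTR of 35 of 52 genes of the immediate early and AU-rich list (67.3%), of 10 of 25 NF-kappaB targets (40.0%) and of 5227 of 18845 genes in all (27.7%).
KLF2, chr19:16327104-16327126, plus strand: gtgactggTATTTATtggaccca
IER3, chr6:30743656-30743678, minus strand: ctaattaaTATTTATatgtattt
LIF, chr22:30242575-30242597, minus strand: atgatttcTATTTATtatgatat

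The targeted gene fell in both fractions. CNOT1 (ENSG00000125107, GRCh38 chr16:58519951-58629886, minus strand) was at 600 and 574 CPM in the cytoplasmic-labelled sgGal4 libraries and at 29.2 and 18.9 CPM in the sgCNOT1 libraries. The log2 change was -4.53 ± 0.22 (SE; edgeR quasi-likelihood test with Benjamini-Hochberg adjustment over all genes tested, adjusted p = 2.5e-08). In the nuclear-labelled libraries it went from 811 and 822 CPM to 46.2 and 45.8 CPM (adjusted p = 5.0e-27). CNOT1 thus stood at a fitted ratio to control of 0.0433 (cytoplasmic-labelled) and 0.0538 (nuclear-labelled) in the libraries whose guide names it. The sgGal4 guide names no gene of these tables, and its label was not checked in this way. The same edgeR test and adjustment stand behind every adjusted p below, and "rose" and "fell" are used for an adjusted p below 0.05.

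CNOT1 was the subunit called as lower in the cytoplasmic-labelled fraction with all libraries, and several other subunits rose in the nuclear-labelled one. Of 11 subunits tested, none rose and 1 fell in the cytoplasmic-labelled comparison, against a background of 13.0% of all genes rising and 9.01% falling there. That rested on 1 library: without cytoplasmic-labelled sgCNOT1 replicate 1, 5 subunits fell and 1 rose. In the nuclear-labelled comparison 6 rose and 1 fell, where 26.5% of all genes rose and 23.1% fell. CNOT2, the partner of CNOT3 in the complex's NOT module, had 65.1 and 54.6 CPM with sgGal4 and 98.6 and 115 CPM with sgCNOT1 in the nuclear-labelled libraries, without overlap (log2 change 0.74 ± 0.11, adjusted p = 3.8e-06). CNOT6L, a catalytic deadenylase, went from 120 and 135 to 182 and 241 CPM there (0.67 ± 0.11, adjusted p = 6.5e-06). CNOT3, the deadenylases CNOT6 and CNOT8, and CNOT10 rose by 0.53, 0.23, 0.59 and 0.56. The deadenylase CNOT7 and the ubiquitin ligase subunit CNOT4 did not pass in either fraction, with log2 differences of -0.28 and -0.23 in the cytoplasmic-labelled and 0.09 and 0.18 in the nuclear-labelled libraries. The ratio of nuclear-labelled to cytoplasmic-labelled RNA rose for 2 of the 11 subunits, CNOT2 by 0.80 (adjusted p = 0.035) and CNOT6L by 0.87 (adjusted p = 0.023). Across all genes 2.59% had a ratio that rose and 3.24% one that fell. The count of 2 subunits moved when 1 library was left out.

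**Figure D1:**
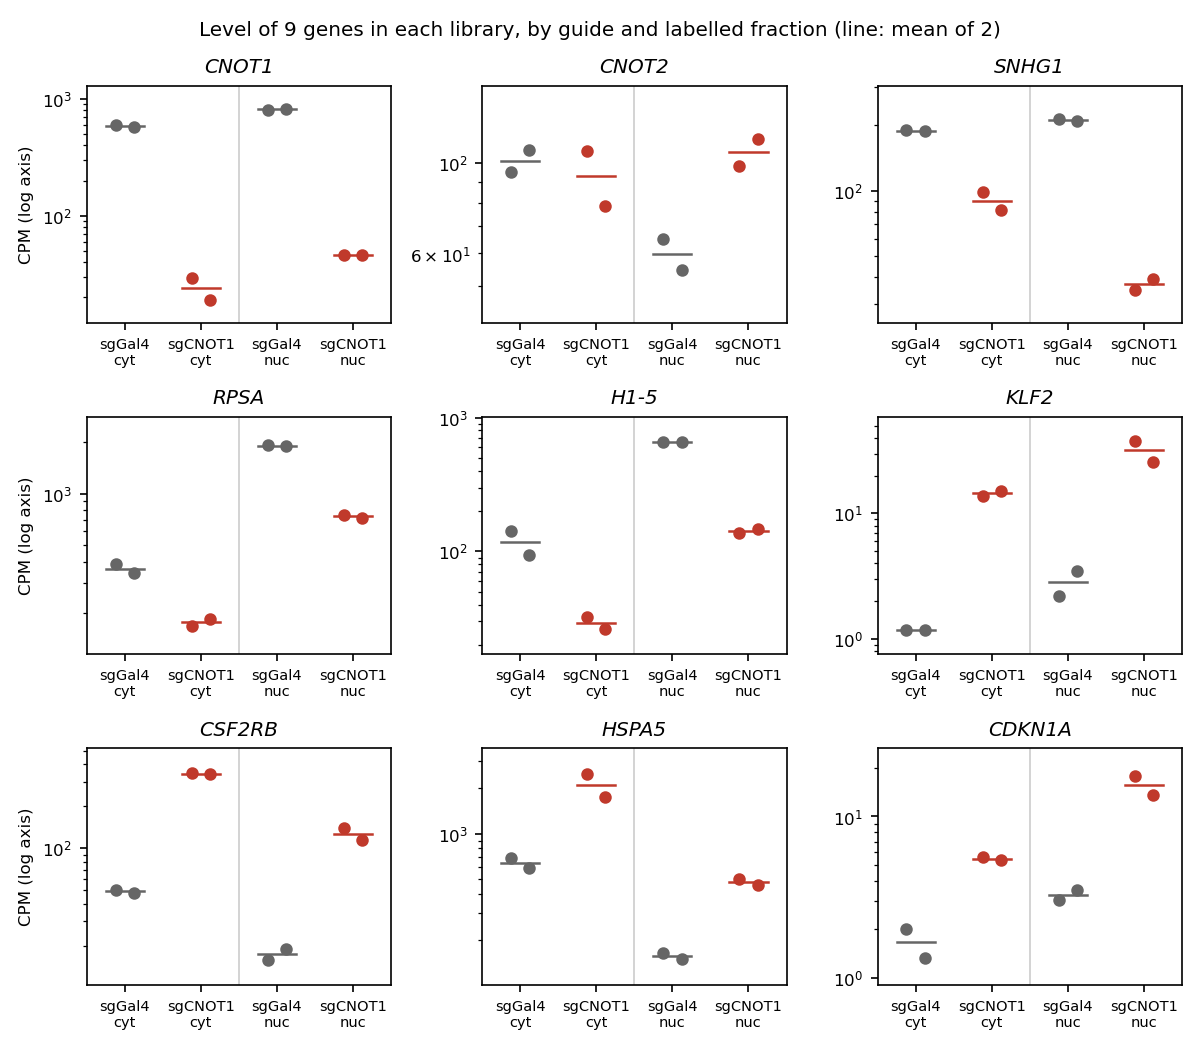
CPM (log axis) of 9 genes in each of the 8 libraries, with a dot per library and a line at the mean of the 2 libraries, for the cytoplasmic-labelled and nuclear-labelled fractions. CNOT1, SNHG1, RPSA and H1-5 sit lower and KLF2, CSF2RB, HSPA5 and CDKN1A higher in the sgCNOT1 libraries of both fractions, without overlap, whereas CNOT2 does so only in the nuclear-labelled one.

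The knockdown moved many genes in both fractions, more of them past the threshold in the nuclear-labelled libraries. In the cytoplasmic-labelled fraction 2091 genes rose and 1450 fell of 16091 tested, with a median log2 change over all genes of 0.01. In the nuclear-labelled fraction 3796 rose and 3314 fell of 14324, with a median of 0.01. The shares were thus 13.0% rising and 9.01% falling in the first, and 26.5% and 23.1% in the second. For the ratio they were 2.59% and 3.24%. Every count of list members below stands against these shares. The common spread between replicates (biological coefficient of variation) was 0.152 in the first fit and 0.0811 in the second, so the counts differ in precision and do not by themselves compare the size of the response. Of 13462 genes tested in both, 1949 rose in the cytoplasmic-labelled fraction, 3692 rose in the nuclear-labelled one, and 1422 rose in both, which is 73.0% of the first list and 38.5% of the second. Likewise 976 genes fell in both, 69.1% of 1413 and 30.7% of 3180. The 2 fractions of 1 replicate number may come from the same cells, so shared direction is not independent evidence. The cytoplasmic-labelled count depended on single libraries. It was 1360 without sgGal4 replicate 1, 1823 without sgGal4 replicate 2, 4333 without sgCNOT1 replicate 2 and 6652 without sgCNOT1 replicate 1. Of 184 named genes called there, 73 lost the call without sgGal4 replicate 1 and 51 without sgGal4 replicate 2, with no change of sign. The nuclear-labelled count stayed between 5116 and 7325 when each of its 4 libraries was left out.

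**Figure D2:**
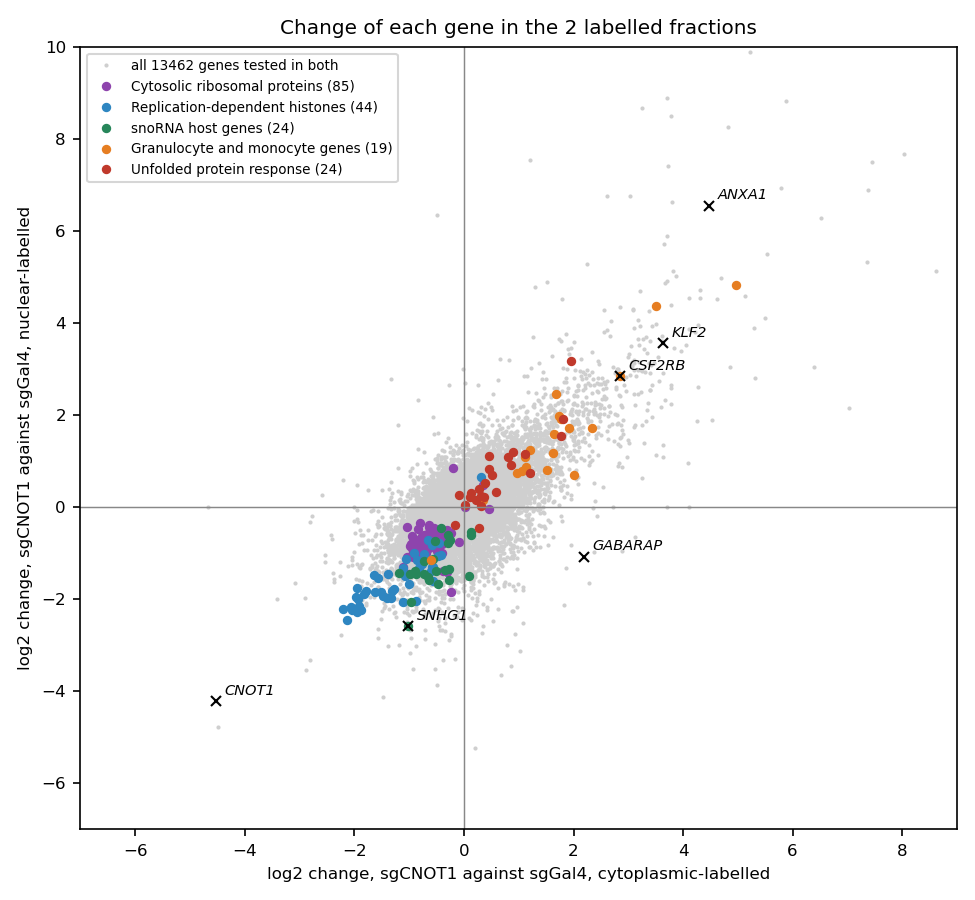
Log2 change of sgCNOT1 against sgGal4 in the cytoplasmic-labelled (x) and nuclear-labelled (y) libraries for 13462 genes, with 5 gene lists coloured. The 24 snoRNA host genes and 44 histone genes lie low in both, the 19 granulocyte and monocyte genes mostly high in both, and GABARAP lies high on x and low on y.

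The adaptors that bring CCR4-NOT to its targets gave more rises than falls in the nuclear-labelled fraction. Of 22 recruiters tested there, 12 rose and 1 fell, where 26.5% of all genes rose and 23.1% fell. In the cytoplasmic-labelled fraction 3 of 22 rose and 2 fell, which is close to the 13.0% and 9.01% of all genes. These cytoplasmic-labelled counts moved to 6 rises without sgCNOT1 replicate 2, to 9 falls without sgCNOT1 replicate 1, and to no fall without either sgGal4 replicate. BTG2, an antiproliferative adaptor, was at 62.3 and 59.3 CPM with sgGal4 and at 164 and 156 CPM with sgCNOT1 in the cytoplasmic-labelled libraries (log2 change 1.45, adjusted p = 3.6e-05). In the nuclear-labelled fraction it went from 76.7 and 82.9 to 463 and 415 CPM (2.40 ± 0.09, adjusted p = 1.4e-18), and its ratio rose by 0.95. ZFP36L2, a TTP-family protein, went from 38.3 and 37.0 to 114 and 114 CPM (1.65, adjusted p = 6.9e-06) and from 86.5 and 78.0 to 335 and 342 CPM (1.96, adjusted p = 6.9e-17). Both genes were thus higher in every sgCNOT1 library. ZFP36, which encodes TTP itself, rose by 0.89 and 0.81 in the cytoplasmic-labelled and nuclear-labelled fractions. ZFP36L1, BTG1, TOB1 and CPEB4 rose in the nuclear-labelled fraction by 1.21, 1.07, 0.88 and 0.83. The falls were BTG3 by -0.94 and TOB2 by -0.51 in the cytoplasmic-labelled fraction and RC3H1, which encodes the stem-loop binding protein Roquin, by -0.47 in the nuclear-labelled one. Of the 4 microRNA-binding Argonautes, the remaining member did not pass in the cytoplasmic-labelled libraries, with a log2 difference of 0.42. AGO1, AGO2 and AGO3 fell there by -0.46, -0.52 and -0.48 (adjusted p = 0.029, 0.019 and 0.029). All 3 calls were lost without either of the sgGal4 replicates. None of the Argonautes passed in the nuclear-labelled ones, where 1 fell without sgCNOT1 replicate 1.

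Single genes of the poly(A) tail and of decay after deadenylation changed, in both directions. PABPC1, the main cytoplasmic poly(A)-binding protein, was at 977 and 896 CPM with sgGal4 and at 438 and 301 CPM with sgCNOT1 (log2 change -1.28, adjusted p = 0.00032). In the nuclear-labelled libraries it went from 2588 and 2536 to 1182 and 1308 CPM (-1.11, adjusted p = 5.2e-16). PABPC1 therefore fell to about the same degree in both. PABPN1, the nuclear poly(A)-binding protein, had 89.3 and 110 CPM against 81.2 and 155 CPM in the cytoplasmic-labelled libraries, where the groups overlapped. It went from 32.5 and 36.6 to 19.0 and 14 CPM in the nuclear-labelled ones (-1.10), and its ratio fell by 1.38 (adjusted p = 0.0035). Over the other deadenylases and poly(A) factors, none rose and 2 fell of 21 in the cytoplasmic-labelled fraction, where 13.0% of all genes rose and 9.01% fell. In the nuclear-labelled one 5 rose and 6 fell of 22, close to the 26.5% and 23.1% of all genes. The cytoplasmic-labelled falls were 7 without sgCNOT1 replicate 1, 4 without sgCNOT1 replicate 2 and 1 without sgGal4 replicate 2.

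Of 22 decapping and 5′-to-3′ decay genes, none rose and 3 fell in the cytoplasmic-labelled fraction, where 13.0% of all genes rose and 9.01% fell. In the nuclear-labelled one 4 rose and 5 fell of the 22, against 26.5% and 23.1% of all genes. The falls ran from 0 (without sgGal4 replicate 1) to 6 (without sgCNOT1 replicate 1) in the first and up to 8 (without sgCNOT1 replicate 2) in the second. LSM4, a subunit of the decapping activator ring, went from 193 and 207 to 68.9 and 67.2 CPM in the nuclear-labelled libraries (-1.62, adjusted p = 5.9e-15). In the cytoplasmic-labelled ones it went from 52.1 and 52.0 to 27.1 and 32.8 CPM (-0.76), and its ratio fell by 0.86. LSM5, of the same ring, fell, with log2 changes of -0.85 and -1.04, and the decapping enzyme DCP2 by -0.64 and -0.58. Opposite to these, the exonuclease XRN1 rose by 0.99 (adjusted p = 1.6e-07) and the decapping cofactor DCP1A by 0.74 in the nuclear-labelled libraries. Of 14 nonsense-mediated decay factors, 1 fell in the cytoplasmic-labelled fraction and 2 rose and 7 fell in the nuclear-labelled one, with UPF3B at -1.48 and SMG9 at -0.99. Without cytoplasmic-labelled sgCNOT1 replicate 1 the 1 fall became 5, and it was 0 without either sgGal4 replicate. The ratio fell for 3 of the 14, namely UPF3B, SMG5 and SMG9, by 1.07, 0.91 and 0.90. Exosome and SKI subunits, which degrade RNA from the 3′ end, had 2 rises and 3 falls of 17 in the cytoplasmic-labelled fraction. In the nuclear-labelled one they had 3 rises and 4 falls, against 26.5% and 23.1% of all genes. Their falls ran from 1 to 7 in the cytoplasmic-labelled fraction, highest without sgCNOT1 replicate 1 and lowest without either sgGal4 replicate. In the nuclear-labelled one the falls ran down to 1 without sgGal4 replicate 1, and 1 gene rose without sgGal4 replicate 2.

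SnoRNA host genes fell, with the lower median in the nuclear-labelled libraries. These genes carry snoRNAs in their introns, and their spliced, mostly non-coding transcripts are known targets of translation-linked decay. Of 24 hosts, none rose and 11 fell in the cytoplasmic-labelled fraction (median log2 change -0.52), and none rose and 23 fell in the nuclear-labelled one (median -1.39). Of all genes 9.01% and 23.1% fell. Per replicate the medians were -0.60 and -0.52, and -1.42 and -1.32. The cytoplasmic-labelled falls were 7 without sgGal4 replicate 1 and 6 without sgGal4 replicate 2, and 17 to 22 fell in the nuclear-labelled fraction when 1 library was left out. SNHG1 (chr11:62851988-62855914, minus strand) was at 191 and 188 CPM with sgGal4 and at 98.6 and 81.4 CPM with sgCNOT1 in the cytoplasmic-labelled libraries (-1.02 ± 0.16, adjusted p = 0.00052). In the nuclear-labelled ones it went from 214 and 209 to 34.9 and 39 CPM (-2.59 ± 0.10, adjusted p = 1.2e-18). SNHG1 was thus close in both fractions of control cells and lower in the nuclear-labelled fraction of knockdown cells, and its ratio fell by 1.58 (adjusted p = 3.3e-05). GAS5, a host long studied for its decay in growing cells, went from 253 and 249 to 143 and 119 CPM (-0.88) and from 367 and 352 to 140 and 150 CPM (-1.38, adjusted p = 2.6e-15). SNHG5, ZFAS1 and SNHG29 fell, with log2 changes of -0.97, -0.66 and -0.57 in the cytoplasmic-labelled and of -2.07, -1.51 and -1.12 in the nuclear-labelled fraction. SNHG7 was at 33.8 and 36.4 CPM against 25.1 and 48.8 CPM in the cytoplasmic-labelled libraries, where the groups overlapped. It went from 37.8 and 29.6 to 13.2 and 12.3 CPM in the nuclear-labelled ones, and its ratio fell by 1.58 (adjusted p = 0.0012). The ratio fell for 7 of 24 hosts, SNHG32 among them by 1.2, and rose for none, where 3.24% of all genes had a fall. The count of 7 moved when 1 library was left out. SNHG9 was the host that did not pass in the nuclear-labelled fraction (-0.77, adjusted p = 0.22). The sgDDX3 and sgNUP160 libraries had host medians between -0.20 and 0.24 in both fractions.

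**Figure D3:**
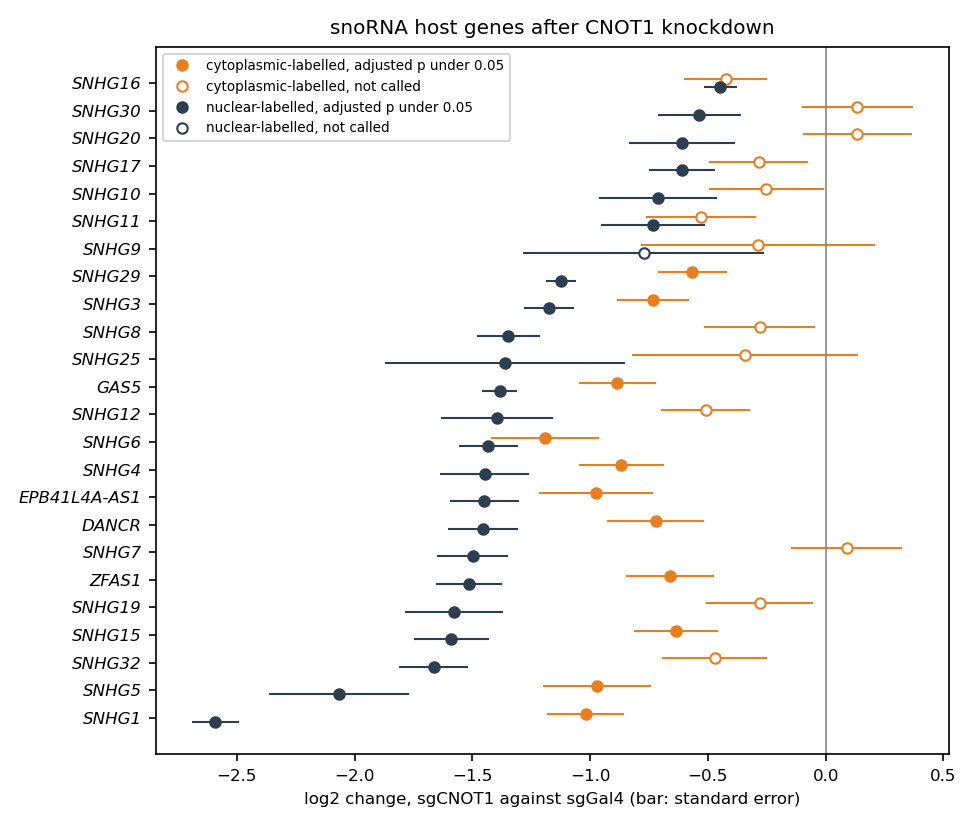
Log2 change with its SE for the 24 snoRNA host genes in the cytoplasmic-labelled and nuclear-labelled libraries, filled where the adjusted p was below 0.05. In the nuclear-labelled fraction 23 of 24 fell, SNHG1 by -2.59, and 11 of 24 fell in the cytoplasmic-labelled ones.

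Cytosolic ribosomal protein genes fell as a group in both fractions. Of 86 tested in the cytoplasmic-labelled libraries none rose and 61 fell (median -0.65). Of 85 in the nuclear-labelled ones 2 rose and 80 fell (median -0.72). The falls over all genes were 9.01% and 23.1%. RPSA, a small-subunit protein, went from 386 and 341 to 168 and 185 CPM (-1.0, adjusted p = 0.00056) and from 1918 and 1909 to 746 and 724 CPM (-1.45, adjusted p = 1.4e-18). RPLP0, the base of the ribosomal stalk, went from 825 and 721 to 364 and 330 CPM (-1.11) and from 3570 and 3570 to 1513 and 1540 CPM (-1.29, adjusted p = 1.3e-18). For both genes the groups lay far apart compared with the spread of the replicates. RPL22 fell, with log2 changes of -1.03 and -1.45, whereas its paralog RPL22L1 rose by 0.86 in the nuclear-labelled libraries (adjusted p = 0.00063), as did RPS27L, the paralog of RPS27, by 0.48 (adjusted p = 0.0053). The cytoplasmic-labelled count rested on the replicates: the medians were -0.40 in replicate 1 and -0.95 in replicate 2, and between 15 (without sgGal4 replicate 1) and 75 (without sgCNOT1 replicate 1) genes fell when 1 library was left out. In the nuclear-labelled libraries the medians were -0.74 and -0.71, and 78 to 80 fell. With all libraries the ratio changed for 1 of 86, a fall, where 2.59% of all genes had a rise and 3.24% a fall. That count did not hold when 1 library was left out. Many ribosomal protein genes have near-identical pseudogenes, so reads that could be placed only at 1 copy decide their counts.

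Translation factors gave no rise and 12 falls of 36 in the cytoplasmic-labelled and 4 rises and 19 falls in the nuclear-labelled fraction. All genes had 13.0% rises and 9.01% falls in the first, and 26.5% and 23.1% in the second. The cytoplasmic-labelled falls were 27 without sgCNOT1 replicate 1, 2 without the first sgGal4 replicate and 7 without the second. EEF1A1, the elongation factor that delivers aminoacyl-tRNA, fell, with log2 changes of -0.83 and -0.61, and EEF2, the translocase, by -0.57 and -0.77. Nucleolar factors of ribosome assembly had no rise and 11 falls of 32, and 4 rises and 8 falls of 31 where 26.5% and 23.1% of all genes did. Leaving out the same 3 libraries in that order gave 19, 3 and 4 falls in the cytoplasmic-labelled fraction. The start motif printed above did not divide the genes sharply: outside the ribosomal protein and host lists, genes with the run had a median of -0.13 (520 genes) and -0.09 (517 genes) in the cytoplasmic-labelled and nuclear-labelled fractions, against 0.01 and 0.06 for genes without it. Hosts with the run had a nuclear-labelled median of -1.55 and hosts without it one of -1.15.

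Replication-dependent histone genes fell in both fractions. Their messages end in the stem-loop shown above and are made in S phase. Of 44 tested in the cytoplasmic-labelled libraries none rose and 37 fell (median -1.2), where 9.01% of all genes fell. Of 51 in the nuclear-labelled ones none rose and 49 fell (median -1.76), where 23.1% of all genes fell. The cytoplasmic-labelled count was 20 without sgGal4 replicate 1, and the nuclear-labelled one stayed at 47 to 49. The linker histone H1-5 was at 141 and 94.2 CPM with sgGal4 and at 32.6 and 26.2 CPM with sgCNOT1 (-1.95, adjusted p = 2.3e-05), and in the nuclear-labelled libraries it went from 655 and 660 to 138 and 147 CPM (-2.28, adjusted p = 4.7e-19). H2AC8 went from 102 and 80.0 to 25.9 and 15.2 CPM (-2.07) and from 443 and 413 to 95.1 and 104 CPM (-2.18). H4C8 fell, with log2 changes of -0.59 and -1.38, and its ratio fell by 0.80. SLBP, which binds the stem-loop, did not pass in either fraction (-0.49, adjusted p = 0.10, and -0.13, adjusted p = 0.30). H2BC6 was a member that did not pass, with log2 differences of 0.32 and 0.66. Histone genes were also lower in the other knockdowns, with medians of -0.74 and -0.65 in the cytoplasmic-labelled and -1.05 and -1.05 in the nuclear-labelled sgDDX3 libraries, and -0.82 and -0.93 and then -0.92 and -0.91 in the sgNUP160 libraries. Near-identical histone copies make single members uncertain.

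Short-lived messages with AU-rich ends rose in part. Of the 52 listed some did not pass the low-count filter, and a gene can pass it through the knockdown libraries alone. Of the immediate early and AU-rich list, 15 rose and 2 fell of 35 in the cytoplasmic-labelled and 23 rose and 6 fell of 36 in the nuclear-labelled fraction. The rises over all genes were 13.0% and 26.5%, and the falls 9.01% and 23.1%. Without sgGal4 replicate 1 of the fraction concerned, 9 and 14 rose. KLF2, a transcription factor that restrains activation of blood and endothelial cells, was at 1.18 and 1.17 CPM with sgGal4 and at 13.8 and 15.2 CPM with sgCNOT1 (log2 change 3.63, adjusted p = 1.4e-05). In the nuclear-labelled fraction it went from 2.20 and 3.5 to 37.9 and 25.6 CPM (3.56). IER3, an early-response survival gene, went from 5.20 and 4.36 to 28.7 and 27.4 CPM (2.58) and from 7.61 and 10.2 to 57.5 and 49.0 CPM (2.59). KLF2 and IER3 thus rose to the same degree in both fractions. LIF, a cytokine, rose by 1.95 and 1.54. SGK1, a kinase, rose by 1.59 and 2.39, and MCL1, a survival factor of the BCL2 family, by 0.60 and 0.86. JUNB and EGR1, immediate early transcription factors, rose by 1.69 and 1.41 in the cytoplasmic-labelled and by 1.27 and 1.09 in the nuclear-labelled fraction. Against this direction, KLF10, a TGF-beta inducible repressor, went from 16.4 and 16.8 to 3.37 and 4.10 CPM (-2.12, adjusted p = 5.5e-05) and fell, with a log2 change of -1.28 in the nuclear-labelled fraction. ATF3, a stress-induced factor, fell, with log2 changes of -0.97 and -1.30. MYC did not pass in either fraction (-0.38, adjusted p = 0.16, and -0.08, adjusted p = 0.43).

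NF-kappaB targets rose with no fall in the cytoplasmic-labelled fraction. There 13 of 21 tested rose (median 1.0), and in the nuclear-labelled one 16 of 22 tested rose and 1 fell (median 0.93). Of all genes 13.0% and 26.5% rose. The list holds 25 genes, and a gene could pass the low-count filter through the knockdown libraries alone. These counts and medians are therefore not over all members. The cytoplasmic-labelled rises were 7 without sgGal4 replicate 1. RELB, a subunit of the alternative pathway, went from 3.55 and 2.85 to 15.8 and 28.9 CPM (2.79, adjusted p = 4.4e-05) and from 7.79 and 6.46 to 34.0 and 27.1 CPM (1.99). NFKBIA, the inhibitor that NF-kappaB itself induces, rose by 1.29 and 1.41, NFKB2 by 1.61 and 1.36, the apoptosis inhibitor BIRC3 by 2.47 and 2.68, and the adhesion molecule ICAM1 by 1.35 and 1.41. SOD2, the mitochondrial superoxide dismutase, was the member that fell, by -0.32 in the nuclear-labelled fraction. Per replicate the list's medians were 0.94 and 1.05, and 0.91 and 0.85, against 0.15 to 0.61 in the sgDDX3 and -0.04 to 0.37 in the sgNUP160 libraries.

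Of 48 interferon-stimulated genes listed, 32 passed the low-count filter in the cytoplasmic-labelled fraction, of which 9 rose and none fell. In the nuclear-labelled one 31 passed, of which 23 rose and none fell. Over all genes tested 13.0% and 26.5% rose. Here too a gene could pass through the knockdown libraries alone, so these are not counts over all members. The cytoplasmic-labelled count ran from 2 rises without sgGal4 replicate 2 and 3 without sgGal4 replicate 1 to 17 without sgCNOT1 replicate 2, the nuclear-labelled one from 20 to 23. BST2, which tethers virus particles to the cell surface, went from 31.9 and 28.0 to 81.0 and 90.2 CPM (1.55) and rose by 0.94 in the nuclear-labelled fraction. STAT2, a transducer of interferon signals, rose by 0.58 and 0.75, the RNA sensor IFIH1 by 3.20 and 3.52 from under 1 CPM, and the nuclear body protein SP100 by 1.22 in the nuclear-labelled fraction. GBP2, a guanylate-binding protein, was at 0.709 and 2.18 CPM with sgGal4 and at 22.3 and 16.2 CPM with sgCNOT1 (3.87), and in the nuclear-labelled libraries it went from 0.916 and 1.34 to 37.7 and 33.1 CPM (5.02). ISG20, an exonuclease, had no reads in either nuclear-labelled sgGal4 library and was at least 9.76-fold higher with sgCNOT1, taking 3 counts over the control group as the limit. APOL3 was at least 24.9-fold higher by the same limit.

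Genes of the unfolded protein response rose. Of 24, 9 rose and none fell in the cytoplasmic-labelled fraction (median 0.41), and 16 rose and 2 fell in the nuclear-labelled one (median 0.46). HSPA5, the main chaperone of the endoplasmic reticulum, was at 688 and 596 CPM with sgGal4 and at 2452 and 1749 CPM with sgCNOT1 (1.76, adjusted p = 2.1e-05). In the nuclear-labelled libraries it went from 162 and 150 to 500 and 461 CPM (1.55, adjusted p = 2.9e-15), so every sgCNOT1 library lay above every control. SEC24D, a cargo selector of COPII vesicles, went from 13.2 and 16.1 to 65.6 and 43.0 CPM (1.96) and from 13.4 and 11.8 to 118 and 125 CPM (3.17), and its ratio rose by 1.19 (adjusted p = 0.014). DNAJB9, an HSPA5 cochaperone, rose by 1.81 and 1.92, and SYVN1, the ubiquitin ligase of endoplasmic reticulum quality control, by 0.90 and 1.2. CANX, the lectin chaperone calnexin, and CRELD2 fell, with log2 changes of -0.40 and -0.45 in the nuclear-labelled fraction. The cytoplasmic-labelled medians of the replicates were 0.75 and 0.13, and 6 to 18 genes rose when 1 library was left out, 18 of them without sgCNOT1 replicate 2. Genes of ATF4 and the integrated stress response did not share a direction, with 4 rises and 7 falls of 35 and then 13 rises and 9 falls. Over all genes the shares were 13.0% and 9.01%, and then 26.5% and 23.1%. The cytoplasmic-labelled falls ran from 1 (without sgGal4 replicate 1) to 14 (without sgCNOT1 replicate 1).

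Autophagy genes had 10 rises and no fall of 22 in the cytoplasmic-labelled fraction and 14 rises and 2 falls in the nuclear-labelled one. For these and the lysosome genes below, the shares over all genes were 13.0% and 9.01%, and then 26.5% and 23.1%. The cytoplasmic-labelled rises were 4 and 5 without sgGal4 replicates 1 and 2. SQSTM1, the cargo receptor p62, went from 85.7 and 90.5 to 213 and 302 CPM (1.58) and from 109 and 118 to 407 and 314 CPM (1.61). ULK1, the kinase that starts autophagy, rose by 1.21 and 0.91, and the lipid transfer protein ATG2A by 1.3 and 1.03. Of 29 lysosome genes 9 rose and 1 fell, and then 15 rose and 2 fell. In the cytoplasmic-labelled fraction 5 lysosome genes rose without either sgGal4 replicate, 15 rose without sgCNOT1 replicate 2, and 6 fell without sgCNOT1 replicate 1.

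Genes of granulocytes and monocytes rose, and K562 cells already expressed many of them at a low level. Of 37 listed, 20 passed the low-count filter in the cytoplasmic-labelled fraction, of which 17 rose and none fell, and 22 passed in the nuclear-labelled one, of which 17 rose and 1 fell. A gene can pass that filter through the knockdown libraries alone, so these are not counts over all members. Among all genes tested 13.0% and 26.5% rose. The summed level of the 37 was 711.8 and 709.5 CPM in the cytoplasmic-labelled sgGal4 libraries and 2030 and 1977 CPM in the sgCNOT1 ones, and 434.4 and 440.5 against 1074 and 981.9 CPM in the nuclear-labelled ones. CSF2RB, the shared receptor chain for GM-CSF, interleukin-3 and interleukin-5, went from 50.5 and 47.8 to 344 and 339 CPM (log2 change 2.84, adjusted p = 2.9e-07). In the nuclear-labelled fraction it went from 15.8 and 18.8 to 138 and 115 CPM (2.84, adjusted p = 5.0e-16). CSF2RB thus rose about equally in both, without overlap of the groups. ITGAX, the CD11c integrin, went from 2.48 and 4.19 to 91.8 and 106 CPM (4.96, adjusted p = 3.7e-08). The integrin chain ITGB2 rose by 1.91 and 1.73, the Fc receptor FCGR2A by 1.74 and 1.98, the myeloid regulators SPI1 and CEBPA by 1.14 and 1.62 in the cytoplasmic-labelled and 0.86 and 1.18 in the nuclear-labelled fraction, and the G-CSF receptor CSF3R by 1.06 and 0.78. CSF1R, the M-CSF receptor, had no reads in either cytoplasmic-labelled sgGal4 library and was at least 11.1-fold higher with sgCNOT1. CYBB, the phagocyte oxidase subunit, fell, with a log2 change of -1.14 in the nuclear-labelled fraction. Between 9 and 16 of the 37 genes were at 0 in a library.

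Megakaryocyte and platelet genes also rose, with 8 rises and no fall of 13 tested in the cytoplasmic-labelled fraction, out of 30 listed. In the nuclear-labelled one 13 of 15 tested rose and none fell. The share of all genes that rose was 13.0% in the first and 26.5% in the second. Here too a gene could pass the low-count filter through the knockdown libraries alone. GP1BA, the platelet receptor for von Willebrand factor, went from 8.16 and 7.71 to 65.4 and 39 CPM (2.78). THBS1, a platelet granule protein, rose by 2.23 and 2.39, and the platelet tubulin TUBB1 by 2.67 and 3.72. ITGA2B, the platelet integrin chain CD41, went from 25.3 and 34.4 to 81.8 and 115 CPM (1.77). It did not pass in the nuclear-labelled libraries (0.44, adjusted p = 0.11), and its ratio fell by 1.35 (adjusted p = 0.0055). The summed level of the 30 genes was 887.2 and 998.4 CPM against 1212 and 1461 CPM in the cytoplasmic-labelled libraries.

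Erythroid genes had 4 rises and 4 falls of 34 in the cytoplasmic-labelled fraction, close to the 13.0% and 9.01% of all genes. In the nuclear-labelled one 12 rose and 12 fell of 36, against 26.5% and 23.1% of all genes. Without cytoplasmic-labelled sgGal4 replicate 1, none rose and 1 fell, and 7 rose without sgCNOT1 replicate 2. HBZ, an embryonic globin, went from 48.0 and 53.8 to 21.5 and 18.3 CPM in the nuclear-labelled libraries (-1.40). KLF1, the erythroid regulator, rose by 0.70 and 0.66, the erythropoietin receptor EPOR by 0.69 and 0.73, and the transferrin receptor TFRC by 0.54 in the nuclear-labelled fraction. GYPE, a glycophorin gene with close paralogs, fell, with log2 changes of -0.99 and -1.05. MYB, a regulator of immature blood cells, fell, with a log2 change of -0.61 in the cytoplasmic-labelled fraction, and its ratio rose by 0.77.

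Markers of other cell types were few in these libraries, and a gene could pass the low-count filter through the knockdown libraries alone. Of 17 lymphocyte genes, 4 were tested in the cytoplasmic-labelled fraction and 2 rose, and 8 were tested in the nuclear-labelled one and 4 rose. In the first, 1 rose without sgCNOT1 replicate 1 or sgGal4 replicate 2. Their summed level was 10.2 and 10.4 CPM with sgGal4 and 32.0 and 23.0 CPM with sgCNOT1 in the cytoplasmic-labelled libraries. CD3D, a chain of the T cell receptor complex, was at 0.118 and 0.335 CPM with sgGal4 and at 6.93 and 5.70 CPM with sgCNOT1 (4.82, adjusted p = 0.00049), and NKG7, a granule protein of killer cells, rose by 2.09 and 1.81. TRAC, a T cell receptor constant segment, was at least 9.46-fold higher in the nuclear-labelled libraries. The 16 genes of fibroblasts, epithelia and endothelia summed to 42.6 and 38.4 CPM against 45.5 and 26.9 CPM, and PECAM1, an adhesion molecule of endothelium and platelets, rose from 0.118 and 0.335 to 4.04 and 1.43 CPM in the cytoplasmic-labelled libraries. Whether the blood cell genes rose in all cells or in some of them was not tested.

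The largest rises were of genes near 0 in control cells. CCR7, a chemokine receptor, had 0 and 0.335 CPM with sgGal4 and 16.8 and 11.9 CPM with sgCNOT1 (6.52, adjusted p = 1.8e-05), and rose by 6.29 in the nuclear-labelled libraries. ADGRG1, an adhesion receptor of stem and killer cells, went from 0.946 and 0.670 to 35.1 and 29.2 CPM (5.30). The anti-inflammatory annexin ANXA1 went from 0.275 and 0.538 to 38.1 and 31.2 CPM in the nuclear-labelled libraries (6.55, adjusted p = 1.8e-14), and from 0.709 and 0.335 to 15.7 and 8.38 CPM in the cytoplasmic-labelled ones (4.48). PTPRN, LYVE1 and COL6A3 rose by 6.40, 5.88 and 5.49 in the cytoplasmic-labelled fraction. IL4R, an interleukin receptor, the galectin LGALS12 and the protease inhibitor CST7 rose by 5.72, 5.14 and 4.54 in the nuclear-labelled one. Apart from CNOT1, the histones and KLF10, the largest falls included TMEM145 at -2.89 and LRP11 at -2.37 in the cytoplasmic-labelled fraction, and POU3F2, a neural transcription factor, at -2.81 and -3.32. Of 26 integrins listed, 16 and then 15 passed the filter, with the same limit. They had 9 rises and no fall and then 9 rises and 1 fall, where 13.0% and then 26.5% of all genes rose. ITGA5, the fibronectin receptor chain, went from 197 and 201 to 938 and 660 CPM (2.06), and ITGB5 rose by 2.51 and 2.81.

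**Figure D4:**
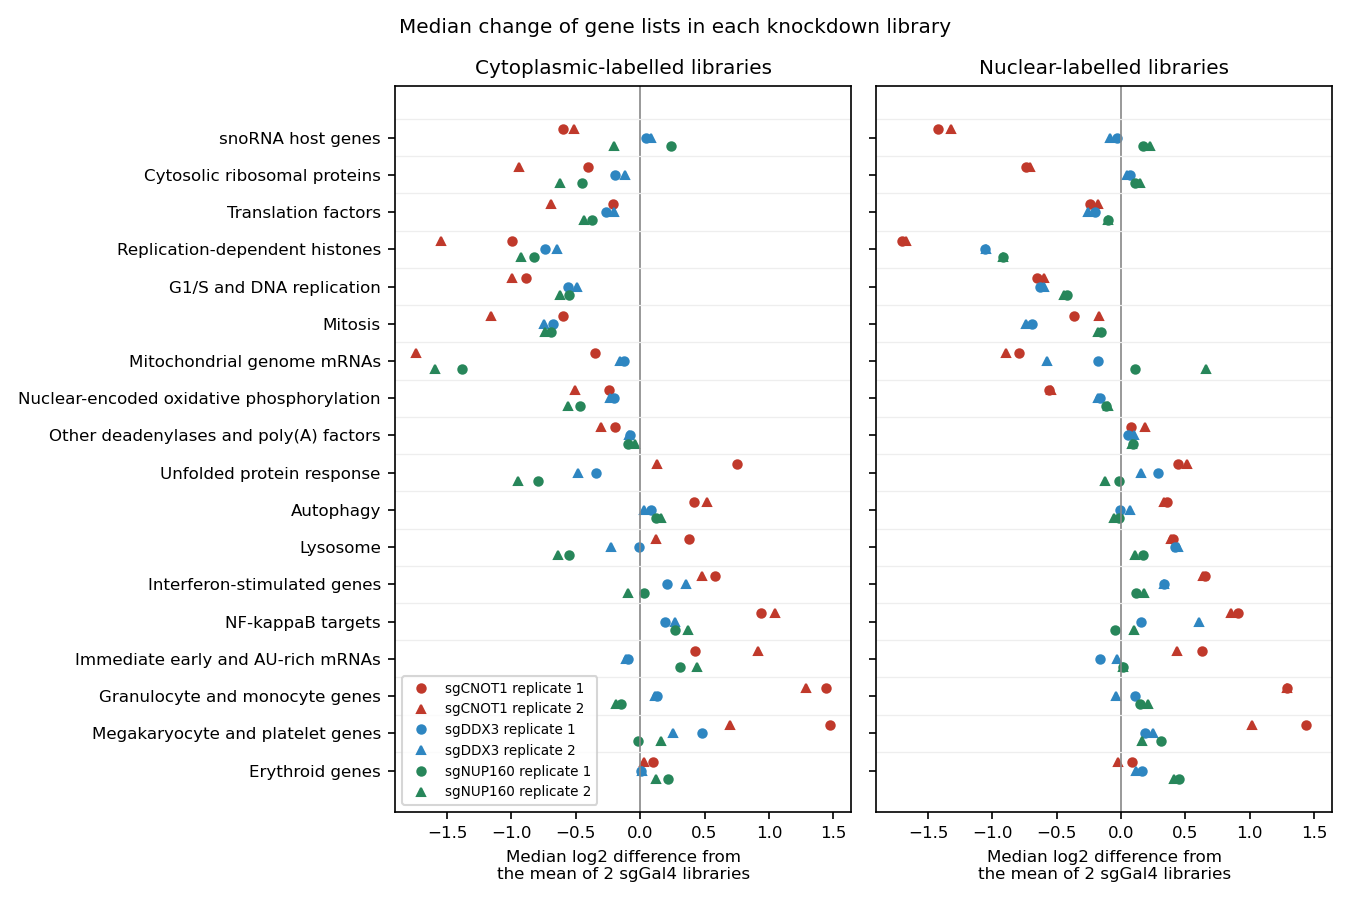
Median log2 difference from the sgGal4 mean for 18 gene lists in each sgCNOT1, sgDDX3 and sgNUP160 library (circles replicate 1, triangles replicate 2), with the cytoplasmic-labelled fraction in one panel and the nuclear-labelled in the other. In the nuclear-labelled panel the snoRNA hosts are low in the sgCNOT1 libraries, at -1.42 and -1.32, and near 0 in the others, whereas the histones are low in all 6.

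Genes of the cell cycle fell. Of 40 genes of the G1/S transition and DNA replication none rose and 32 fell in the cytoplasmic-labelled fraction (median -0.84). In the nuclear-labelled one none rose and 34 fell (median -0.61). The shares of all genes that fell were 9.01% and 23.1%. Fewer of the 40 fell in the cytoplasmic-labelled fraction without either sgGal4 replicate. RRM2, a subunit of ribonucleotide reductase, went from 177 and 187 to 57.0 and 83.9 CPM (-1.34) and fell, with a log2 change of -1.33 in the nuclear-labelled fraction. The replication factors MCM10 and MCM4 fell, with log2 changes of -1.50 and -1.36 in the cytoplasmic-labelled and of -0.79 and -0.58 in the nuclear-labelled fraction. Mitosis genes gave no rise and 26 falls of 32 (median -0.83), then 2 rises and 15 falls of 31, against the same shares. Their ratio rose for 6 and fell for none, where it rose for 2.59% of all genes. The count of 6 moved widely when 1 library was left out. KIF20A, a mitotic kinesin, fell, with log2 changes of -1.39 and -0.51, and the proliferation marker MKI67 by -1.01 and -0.69. The mitotic cyclin CCNB1 did not pass (-0.37, adjusted p = 0.16, and 0.00). Both lists were low in the other knockdowns as well, with mitosis medians of -0.68 to -0.75 in the cytoplasmic-labelled sgDDX3 and sgNUP160 libraries against -0.60 and -1.16 in the sgCNOT1 replicates. Without 1 library, 8 (without sgGal4 replicate 1) to 28 mitosis genes fell in the cytoplasmic-labelled fraction.

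Inhibitors of the cycle and p53 targets had 6 rises and 1 fall of 14 tested, and 7 rises and 1 fall, out of 17 listed. Over all genes the shares were 13.0% and 9.01%, and then 26.5% and 23.1%. A gene could pass the low-count filter through the knockdown libraries alone. The cytoplasmic-labelled rises were 3 without sgGal4 replicate 2. CDKN1A, which encodes the inhibitor p21, went from 2.01 and 1.34 to 5.58 and 5.35 CPM (1.72, adjusted p = 0.043) and from 3.02 and 3.5 to 17.9 and 13.6 CPM (2.25, adjusted p = 6.0e-08). GDF15, a stress-induced cytokine, went from 123 and 131 to 497 and 474 CPM (1.99) and rose by 1.47. TP53INP1 rose by 2.62 and 1.49, and its ratio fell by 1.15. The CDK4 and CDK6 inhibitor CDKN2C fell, with log2 changes of -1.0 and -1.16, and MDM2, a classic p53 target, was at -0.05 and 0.00 without passing. K562 cells are known to lack functional p53.

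Mitochondrial messages were lower in part. Of the 13 messages of the mitochondrial genome none rose and 6 fell in the cytoplasmic-labelled fraction and none rose and 7 fell in the nuclear-labelled one. MT-CYB, the cytochrome b subunit, went from 5431 and 5006 to 2786 and 1022 CPM (-1.39) and fell, with a log2 change of -1.14 in the nuclear-labelled libraries. The medians of the cytoplasmic-labelled sgCNOT1 replicates, -0.35 and -1.74, were far apart, and 3 fell without sgGal4 replicate 1 and all 13 without sgCNOT1 replicate 1. The nuclear-labelled falls were no steadier, with 1 without either sgCNOT1 replicate, 2 without the first sgGal4 replicate and 4 without the second. Of 80 nuclear-encoded subunits of oxidative phosphorylation 3 rose and 15 fell, and then 1 rose and 52 fell (median -0.53). The cytoplasmic-labelled falls were 38 without sgCNOT1 replicate 1, 2 without the first sgGal4 replicate and 8 without the second, and the nuclear-labelled ones stayed at 47 to 56. ATP5F1E, an ATP synthase subunit, fell, with log2 changes of -0.93 and -0.99, and UQCRH, of complex III, by -0.73 in the nuclear-labelled fraction. With all libraries the ratio fell for 9 of 81, UQCR11 by 1.56, and rose for none. Of all genes 3.24% had a ratio that fell and 2.59% one that rose. Both ratio counts of these subunits moved when 1 library was left out. Mitochondrial ribosomal proteins had 4 rises and 9 falls of 76, against 13.0% and 9.01% of all genes. In the nuclear-labelled fraction they had 9 rises and 29 falls, against 26.5% and 23.1%. Leaving out the same 3 libraries gave 20, 1 and 2 falls in the cytoplasmic-labelled fraction.

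The change in the ratio between the labelled fractions was called for 1042 of 17858 genes, with 463 rises and 579 falls and a median of -0.05 over all genes. This count was the least stable: it ran from 229 to 3901 when 1 library was left out, and was 102 when the fit held the sgCNOT1 and sgGal4 libraries alone. Of 84 named genes with a called ratio, 12 kept the call in every setting tried, among them COL9A2, QRICH2, MMUT, GFM1, SNHG1 and SNHG7. COL9A2, a cartilage collagen chain, went from 13.9 and 15.9 to 136 and 197 CPM in the cytoplasmic-labelled libraries (3.51) and from 9.44 and 8.88 to 25.1 and 16.8 CPM in the nuclear-labelled ones (1.13). Its ratio fell by 2.40 ± 0.33 (adjusted p = 5.6e-05), since the rise was larger in one fraction. QRICH2 was at 35.6 and 42.1 against 30.7 and 57.9 CPM, with overlap, and went from 9.99 and 9.42 to 2.43 and 2.16 CPM in the nuclear-labelled libraries, so its ratio fell by 2.35 (adjusted p = 0.00011). MMUT, the mitochondrial methylmalonyl-CoA mutase, went from 17.7 and 10.8 to 45.7 and 50.0 CPM in the nuclear-labelled libraries (1.58). It was at 68.3 and 64.9 against 49.5 and 37.4 CPM in the cytoplasmic-labelled ones (-0.55, adjusted p = 0.057), and its ratio rose by 2.13 (adjusted p = 5.2e-05). GFM1, the mitochondrial elongation factor, went from 141 and 156 to 86.1 and 70.2 CPM and from 39.6 and 38.2 to 73.1 and 84.3 CPM, a change of opposite sign in the 2 fractions with a ratio change of 1.79 (adjusted p = 1.4e-05).

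Further falls of the ratio were those of TAS2R3 (-4.35), CCDC154 (-3.98), GABARAP (-3.28), CCDC17 (-2.63), NPR2 (-2.57), NDUFA13 (-2.34), SLC4A8 (-2.12) and ATP2A1 (-2.08). Further rises were those of TWF1 (1.89), FCHO2 (1.79), TRMT10A (1.77), SLC25A40 (1.64), MIPEP (1.59), COQ3 (1.57), ZNF280C (1.57) and TRIM3 (1.54). TAS2R3, GABARAP, NDUFA13, FCHO2 and MIPEP overlap another annotated gene on the same strand, so their reads are uncertain. Of the genes called in opposite directions in the 2 fractions, 72 also had a called ratio.

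Base composition of the 3′UTR moved with the cytoplasmic-labelled change and with the ratio. Genes with a 3′UTR were split into quintiles by its A+T content, with boundaries at 45.1%, 52.9%, 60.1% and 65.7% in the cytoplasmic-labelled comparison. The median log2 change fell from 0.40 in the quintile poorest in A+T to -0.22 in the richest. In the nuclear-labelled comparison it was 0.06 and 0.14, and the ratio went from -0.31 to 0.34. The gradient differed between replicates. From the poorest to the richest quintile it ran from 0.17 to -0.04 in cytoplasmic-labelled sgCNOT1 replicate 1 and from 0.61 to -0.46 in replicate 2, and from 0.16 to 0.01 and from -0.07 to 0.27 in the nuclear-labelled replicates. Libraries of other guides had gradients too, from 0.22 to -0.24 in cytoplasmic-labelled sgNUP160 replicate 1 and from 0.21 to -0.13 in nuclear-labelled sgDDX3 replicate 1. The part of base composition in the gene-level calls was tested only by taking a library's trend on transcript GC content as an offset, which gave 4242, 7937 and 1687 called genes for the cytoplasmic-labelled, nuclear-labelled and ratio comparisons.

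**Figure D5:**
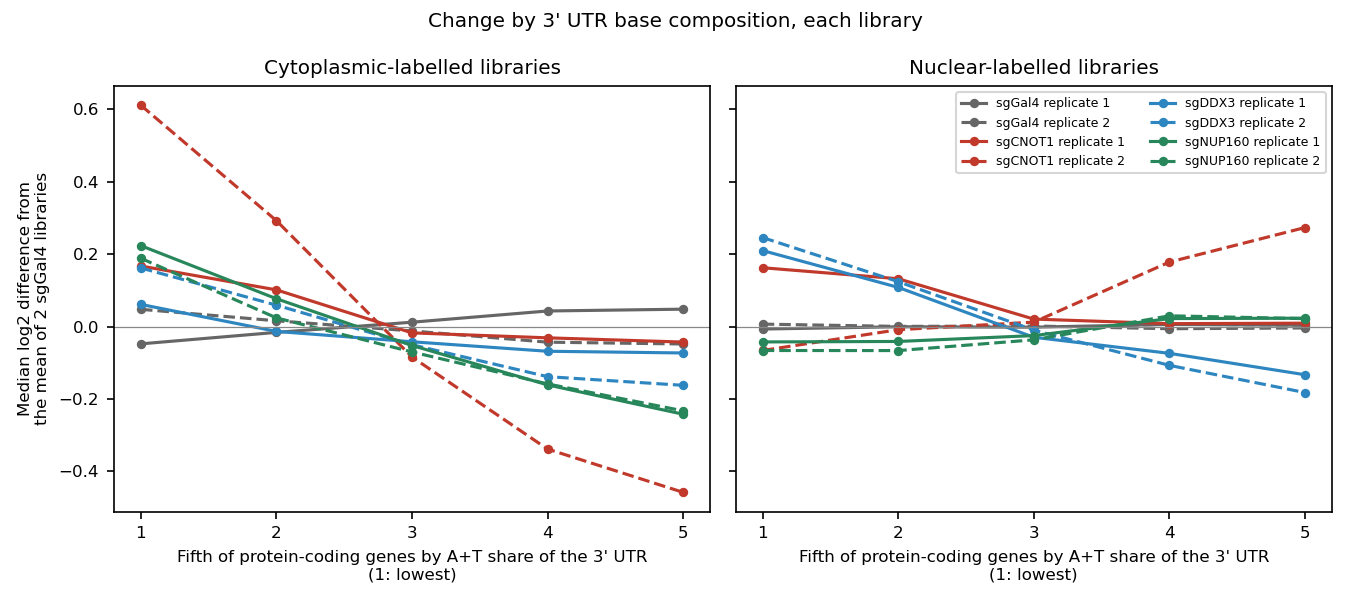
Median log2 difference from the sgGal4 mean over quintiles of genes by 3′UTR A+T content (x, poorest to richest), a line for each of the 16 libraries of the 4 guides, by labelled fraction. Cytoplasmic-labelled sgCNOT1 replicate 2 runs from 0.61 to -0.46 and replicate 1 from 0.17 to -0.04.

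Genes with the AU-rich heptamer TATTTAT had somewhat higher medians once 3′UTR A+T content was matched, and other properties of the transcript went with the change as much. Genes with no match in the 3′UTR had a nuclear-labelled median of 0.03, and those with 3 or more had 0.20. In the cytoplasmic-labelled comparison the medians were 0.05 and -0.10. Because the motif is itself A+T-rich, genes with and without a match were also set side by side within each quintile. In the A+T-richest quintile the nuclear-labelled medians were 0.25 with a match and 0.06 without, and in the poorest quintile 0.17 and 0.04. In the cytoplasmic-labelled comparison matching turned the order: the medians with a match and without were 0.47 and 0.38 in the poorest quintile, 0.28 and 0.19, -0.01 and -0.05, and -0.17 and -0.17 in the next, and -0.21 and -0.24 in the richest. The number of matches also grows with the length of the 3′UTR, and the nuclear-labelled median went from -0.04 in the quintile with the shortest 3′UTRs to 0.17 in the longest. Coding length went with the nuclear-labelled change as well, from -0.17 in the shortest quintile to 0.22 in the longest. These features vary together, their separate parts were not tested, and nothing particular to the heptamer is read from its medians.

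To see where the CNOT1 knockdown differed from the other knockdowns, the sgCNOT1 libraries were set against the mean of the sgDDX3 and sgNUP160 libraries. A difference here can also come from a change in those libraries. This contrast shares the sgCNOT1 libraries with the one above, so the values stand side by side and do not add support. In the cytoplasmic-labelled fraction 2321 genes were higher (14.4%) and 1307 lower (8.12%), and in the nuclear-labelled one 4298 higher (30.0%) and 3760 lower (26.2%). SnoRNA hosts had no gene higher and 13 lower, and no gene higher and 21 lower in the nuclear-labelled fraction. Ribosomal protein genes had 1 higher and 22 lower, and 2 higher and 79 lower. Both groups thus lay below the other knockdowns in the nuclear-labelled fraction. Histone genes had 13 and 42 lower and none higher, with medians of -0.45 and -0.66 against -1.2 and -1.76 relative to sgGal4. Mitosis genes had 2 lower and none higher in the cytoplasmic-labelled fraction, and 14 higher and 5 lower in the nuclear-labelled one. Relative to sgGal4 their medians were -0.83 and -0.25, so they were not above control. Granulocyte and monocyte genes had 17 higher in each fraction, with 2 and 1 lower. Megakaryocyte genes had 8 and 13 higher and none lower. Of the 13 mitochondrial genome messages none was higher, and 1 was lower in the cytoplasmic-labelled fraction (median -0.12) and 8 in the nuclear-labelled one (median -0.93). Nuclear-encoded oxidative phosphorylation genes had 8 higher and 4 lower of 80 (median 0.05), and then 9 higher and 50 lower (median -0.40). All 24 unfolded protein response genes were higher in the cytoplasmic-labelled fraction (median 1.02), where the sgDDX3 and sgNUP160 libraries had list medians of -0.34 to -0.95 relative to sgGal4. ATF4 and integrated stress response genes were higher in 19 and 25 cases of 35 and lower in none (medians 0.54 and 0.61). Relative to sgGal4 their medians were -0.15 and 0.03, so the list stood above the other knockdowns but not above control.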

How the data were processed

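Gene counts were deposited by the authors for each library, per the file headers as STAR read counts with columns for unstranded reads and for each strand. Alignment used STAR 2.7.5a and GRCh38, per the submitters' processing notes. The gene annotation behind the counts is not stated there. The reverse-strand column was used, since the kit was directional and 5.30% to 9.57% of strand-assigned reads fell on the other strand. Unassigned reads (25.1% to 67.6%) stayed out of library sizes. Of 60664 gene IDs, 58396 were in GENCODE 29 and 60463 in the name table.

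Counts were tested with edgeR 4.0.16 in R 4.3.3 (TMM, filterByExpr, robust quasi-likelihood fit), with Benjamini-Hochberg adjustment over all genes. Each fraction was fitted over the 8 libraries of 4 guides and the ratio change over 16. The scripts were tested on simulated data. Alternatives included DESeq2 1.42.0, other scalings and filters, unstranded counts, a replicate block and each library left out. The members, the 38 gene lists and the rule for named genes were chosen with earlier results of these data known. The rule names, per comparison, up to 10 rises and 10 falls among protein-coding genes of at least 5 CPM whose groups do not overlap, all complex subunits, recruiters and Argonautes, and the leading members of each list. Other genes in the text were chosen after their values were seen. A gene at 0 in both control libraries is given as a bound from 3 counts over the group, which covers counting error only. Some genes that the rule names are not reported here.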

Additional observations from a re-analysis of the deposited data

Results flagged for a closer look

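The following genes, from the lists and the named genes, changed in opposite directions in the 2 labelled fractions, each passing the threshold in both, and the difference itself passed the test of the ratio change. GABARAP, a ubiquitin-like protein of autophagosomes, had a ratio change of -3.28 (log2 change 2.19 in the cytoplasmic-labelled fraction and -1.08 in the nuclear-labelled one, adjusted p of the ratio = 0.00016). It was at 1.06 and 0.67 CPM with sgGal4 and at 3.37 and 4.81 CPM with sgCNOT1 in the first, and went from 11.1 and 14.8 to 6.74 and 5.49 CPM in the second, and another annotated gene overlaps it on the same strand. NDUFB8, of respiratory complex I, had -1.91 (1.14 and -0.76, adjusted p = 0.0060). The elongation factor GFM1 had 1.79 (-0.87 and 0.94, adjusted p = 1.4e-05). The carrier SLC25A40 had 1.64 (-0.99 and 0.68, adjusted p = 0.0021). MRPL41, a mitochondrial ribosomal protein, had -1.30 (0.81 and -0.47, adjusted p = 0.0025).

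IER2, an immediate early gene, had -1.27 (0.81 and -0.45, adjusted p = 0.00085), with 101 and 102 against 133 and 216 CPM in the cytoplasmic-labelled and 123 and 132 against 107 and 86.7 CPM in the nuclear-labelled libraries. KCNQ1OT1, an RNA that stays in the nucleus, had -1.16 (0.56 and -0.60, adjusted p = 0.011). ALDH1L2, a mitochondrial folate enzyme, had 1.15 (-0.62 and 0.53, adjusted p = 0.0019). The mitotic checkpoint kinase BUB1 had 1.15 (-0.56 and 0.60, adjusted p = 0.0020), and ANLN, the scaffold protein anillin, had 0.99 (-0.58 and 0.42, adjusted p = 0.013).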

How the results depend on the processing

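The named genes that were called kept their direction under every alternative. Of the named genes called, 100 of 184 in the cytoplasmic-labelled, 205 of 247 in the nuclear-labelled and 12 of 84 in the ratio comparison stayed past the threshold in all of them. The cytoplasmic-labelled count of 3541 was 1890 with the sgCNOT1 and sgGal4 libraries alone and ran from 1360 to 6652 with each library left out. The ratio count of 1042 was 1601 with the DESeq2 test, 1688 with library totals as scaling (1240 rises and 448 falls, median 0.08), 102 with the sgCNOT1 and sgGal4 libraries alone, 1687 with the transcript GC offset, which was added after the composition trends were seen, and 229 to 3901 with each library left out (3901 without cytoplasmic-labelled sgCNOT1 replicate 1, 229 without nuclear-labelled sgCNOT1 replicate 2). The cause was not tested. The nuclear-labelled count of 7110 stayed within 1.5 times in all of them, as did both counts against sgDDX3 and sgNUP160 with either sgCNOT1 library left out. The replicate block gave 4429, 6952 and 811. Whether the replicate numbers pair the samples is not given by the labels and was not settled by the data. Replicate differences correlated across genes at 0.49 between sgGal4 and sgCNOT1, 0.31 between sgCNOT1 and sgDDX3 and 0.22 between sgGal4 and sgDDX3 in the cytoplasmic-labelled libraries, but at 0.04, 0.03 and -0.07 for the pairs with sgNUP160. In the nuclear-labelled libraries they ran from -0.28 to 0.08, with -0.08 for sgGal4 and sgCNOT1. Since not every pair was over 0.1, the fit without the block was kept. The differences between replicates in the cytoplasmic-labelled and nuclear-labelled sgCNOT1 libraries correlated at -0.63, which bears on the ratio change, against 0.02 in the sgGal4 libraries. Where 1 library was left, it was assumed to vary like the other groups.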

Other observations

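For the lists in this paragraph, the share over all genes was 13.0% rising and 9.01% falling in the cytoplasmic-labelled fraction. In the nuclear-labelled one it was 26.5% and 23.1%. Proteasome genes had no rise and 2 falls of 35 in the cytoplasmic-labelled fraction and 11 rises and 7 falls of 36 in the nuclear-labelled one. The cytoplasmic-labelled falls were 14 without sgCNOT1 replicate 1, and the nuclear-labelled falls were 4 and 3 without sgGal4 replicates 1 and 2. Nucleoporin genes had no rise and 8 falls, and 8 rises and 7 falls of 30. The nuclear-labelled counts are close to the share over all genes, of which 26.5% rose and 23.1% fell, and the rises were 13 without sgCNOT1 replicate 1. The cytoplasmic-labelled falls stood against 9.01% of all genes and were 21 without sgCNOT1 replicate 1, 2 without the first sgGal4 replicate and 4 without the second. Heat shock genes had 5 rises and 1 fall of 18, and 8 rises and 3 falls. Without sgCNOT1 replicate 1, 8 of them fell in the cytoplasmic-labelled fraction, and 4 rose in the nuclear-labelled one without sgGal4 replicate 1. Genes of cholesterol synthesis and uptake had 4 rises and 2 falls of 23, and 8 rises and 4 falls. Their cytoplasmic-labelled falls were 7 without sgCNOT1 replicate 1, and their nuclear-labelled rises 5 without sgGal4 replicate 1. NEAT1, the RNA scaffold of paraspeckles, rose by 0.75 and 0.59 on the log2 scale in the 2 fractions (adjusted p = 0.0026 and 2.3e-05 by edgeR).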
